A study of Mus musculus with 18 samples.

Results

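The period, cryptochrome and clock output genes were followed in mouse brown adipocytes in which lipolysis was switched on or blocked. They are 10 genes of the count table, taken by symbol: Per1, Per2, Per3, Cry1, Cry2, Dbp, Tef, Hlf, Nfil3 and Bhlhe40. The table holds 20295 genes, of which 12156 passed the filter on low counts, and all 10 clock genes were among them. RNA was sequenced from BAT-LgT cells, a wild-type line of brown preadipocytes that carries SV40 large T antigen, on day 7 of differentiation in culture. The lipases ATGL and HSL, which cleave triglycerides, were left active or were blocked with inhibitors for 1 h. The cells were next exposed for 3 h to Vehicle (DMSO), to 100 nM isoproterenol (ISO), an agonist of β-adrenergic receptors, or to SR-3420. SR-3420 is a ligand of ABHD5, the co-activator of ATGL, and was used to start lipolysis without the β-adrenergic receptor. Its dose is 10 µM per the labels, whereas the text of the study gives another dose, a difference left unresolved. Without inhibitors the groups are called Vehicle, ISO and SR-3420, and the same names follow Lipase Inh. + where inhibitors were given. Each of the 6 groups holds 3 samples, described in the study's methods as independent experiments. All samples came from a single immortalised line, the cells were not synchronised, and each group was harvested at a single time, so phase and amplitude of a rhythm cannot be read from these values.

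In the molecular clock, the activators CLOCK and BMAL1 bind E-boxes and drive the Per and Cry genes, whose proteins then repress these activators. In the output arm, DBP, TEF and HLF are related bZIP activators that bind D-boxes, and NFIL3 (E4BP4) is a bZIP repressor of the same sites. BHLHE40 (DEC1) is a repressor that binds E-boxes. Per1 and Per2 are also known as immediate targets of cAMP and CREB, and clocks of this kind run in brown adipose tissue.

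To show which letters lie next to the start sites, promoter windows from 250 bases before to 50 bases after the annotated start were taken from RefSeq for the build GRCm38.p6. Of the 10 genes, 8 matched an entry, with 10 windows in all, since Per1 and Tef have 2 each. Per2 and Bhlhe40 had no entry. The windows of 5 genes are printed from 5′ to 3′, because Per3 fell most with ISO and holds D-boxes, Per1 and Cry1 hold the E-box, Hlf holds the whole cAMP response element and Nfil3 rose most. Capitals mark matches, on either strand, to the E-box CACGTG, the cAMP response element TGACGTCA or its core TGACG, the D-box TTANNTAA and the Rev-erb/Ror core TAGGTCA.
Per3 (chr4:151044616-151044915, minus strand): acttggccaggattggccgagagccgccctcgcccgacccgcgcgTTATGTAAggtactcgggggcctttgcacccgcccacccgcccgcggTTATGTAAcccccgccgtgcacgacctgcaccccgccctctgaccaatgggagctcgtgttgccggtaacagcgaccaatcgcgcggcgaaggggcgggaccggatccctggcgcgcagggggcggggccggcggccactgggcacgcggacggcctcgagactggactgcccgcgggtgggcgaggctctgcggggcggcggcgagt
Per1, first window (chr11:69098699-69098998, plus strand): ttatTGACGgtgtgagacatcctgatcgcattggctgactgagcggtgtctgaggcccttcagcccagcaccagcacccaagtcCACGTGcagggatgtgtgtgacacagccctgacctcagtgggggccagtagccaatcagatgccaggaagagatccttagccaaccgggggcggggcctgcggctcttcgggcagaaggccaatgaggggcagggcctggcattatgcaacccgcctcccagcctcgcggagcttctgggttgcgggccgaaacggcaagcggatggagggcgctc
Cry1 (chr10:85185005-85185304, minus strand): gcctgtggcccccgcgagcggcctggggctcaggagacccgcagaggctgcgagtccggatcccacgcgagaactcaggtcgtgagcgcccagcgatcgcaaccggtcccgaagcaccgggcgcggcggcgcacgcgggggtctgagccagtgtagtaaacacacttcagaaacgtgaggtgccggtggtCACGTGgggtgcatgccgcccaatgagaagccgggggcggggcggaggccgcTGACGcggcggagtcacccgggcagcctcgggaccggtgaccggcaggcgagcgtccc
Hlf (chr11:90390868-90391167, minus strand): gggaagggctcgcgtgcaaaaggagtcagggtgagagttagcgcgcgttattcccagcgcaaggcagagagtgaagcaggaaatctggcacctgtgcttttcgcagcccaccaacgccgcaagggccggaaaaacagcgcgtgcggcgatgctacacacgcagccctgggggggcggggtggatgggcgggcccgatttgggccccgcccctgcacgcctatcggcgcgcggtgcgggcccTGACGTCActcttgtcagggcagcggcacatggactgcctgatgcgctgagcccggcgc
Nfil3 (chr13:52980990-52981289, minus strand): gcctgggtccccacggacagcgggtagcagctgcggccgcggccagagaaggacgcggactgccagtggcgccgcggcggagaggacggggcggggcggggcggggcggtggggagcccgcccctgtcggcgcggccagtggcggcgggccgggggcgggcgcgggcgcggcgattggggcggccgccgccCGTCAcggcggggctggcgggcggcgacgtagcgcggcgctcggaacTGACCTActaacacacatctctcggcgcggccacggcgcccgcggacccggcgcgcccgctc

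Per3 carried the D-box letters at 205 and 158 bases before the start, both times as TTATGTAA. The first Tef window also matched, with TTAGATAA at 174 bases before its start, and these were the 2 of 8 genes with a D-box match, against 6.00% of all 32841 windows. The E-box was found in 3 of the 8 genes, Per1, Cry1 and Tef (7.15% of all windows). The core TGACG was found in 5 of 8 (20.8% of all windows), namely Per1, Cry1, Cry2, Hlf and Nfil3, and within Hlf it lay inside the whole element TGACGTCA, 9 bases before the start (1.79% of all windows). The Rev-erb/Ror core was matched only in Nfil3, on the opposite strand (2.61% of all windows), and Dbp matched none of the letters in its window. Genes are counted here with a match in any of their windows, whereas the percentages count single windows, so these figures differ in unit. A match describes the letters and does not show that a factor binds there.

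Depth and identity of the samples were checked first. In 17 of 18 libraries the total lay between 10310447 and 21205032 counts. The exception was replicate 2 of Lipase Inh. + SR-3420, with 4263755 counts, of which Lars2 took 18.3%. Values that rest on this library are compared with those without it in the text on SR-3420. The 7 adipocyte markers summed to between 10802 and 16205 CPM (counts scaled to a common library size) in every sample. Every ISO sample (15353 to 16205) lay above every Vehicle sample (12425 to 13706). Lipe, Plin1, Cebpa and Fabp4 were higher with ISO, while Adipoq, Pnpla2 and Pparg overlapped with Vehicle. The 6 brown adipocyte markers summed to 253 to 336 CPM with Vehicle and to 1664 to 1744 CPM with ISO. Most of that rise was Ppargc1a (75.7 ± 9.68 with Vehicle, 1080 ± 79.5 with ISO) and Ucp1 (2.69 ± 0.430 and 364 ± 109). Prdm16 was higher with ISO as well (29.5 ± 6.95 and 60.5 ± 5.15), while Cidea, Ebf2 and Cox7a1 overlapped between these groups. Macrophage markers summed to at most 5.88 CPM, endothelial markers to at most 0.472 CPM, and cycling markers, in this immortalised line, to 400 to 765 CPM. The 5 preadipocyte markers, all detected, summed to 82.5 to 111 CPM with Vehicle, to 93.0 to 121 with ISO, whereas SR-3420 gave 125 to 129 CPM. Pdgfra and Cd34 were higher with ISO than with Vehicle, while Col1a1, Dlk1 and Ly6a overlapped. In RNA from whole cultures, fewer cells of a type and less RNA per cell cannot be told apart.

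Levels between genes were compared per length, as CPM divided by the counted length in kilobases (RPKM). With Vehicle, Bhlhe40 (87.9 ± 2.68 RPKM, SD, n = 3) and Tef (81.9 ± 7.43) stood highest and their samples overlapped, followed by Nfil3 (55.4 ± 9.00). Cry2 (18.4 ± 0.353), Cry1 (17.2 ± 1.55), Per3 (16.99 ± 2.39) and Dbp (15.9 ± 0.773) were next, and neighbours in this order overlapped. Per1 (8.26 ± 0.410), Per2 (3.79 ± 0.789) and Hlf (1.45 ± 0.110) were lowest and lay apart from each other. With Lipase Inh. + ISO this order was altered. Nfil3 (143 ± 3.83 RPKM) and Bhlhe40 (137 ± 3.41) then stood highest and overlapped, Tef (34.8 ± 5.22) overlapped with Cry1 (30.3 ± 1.54), and Per3 (3.26 ± 0.666) had come down to the level of Per2 (2.99 ± 0.572).

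**Figure D1:**
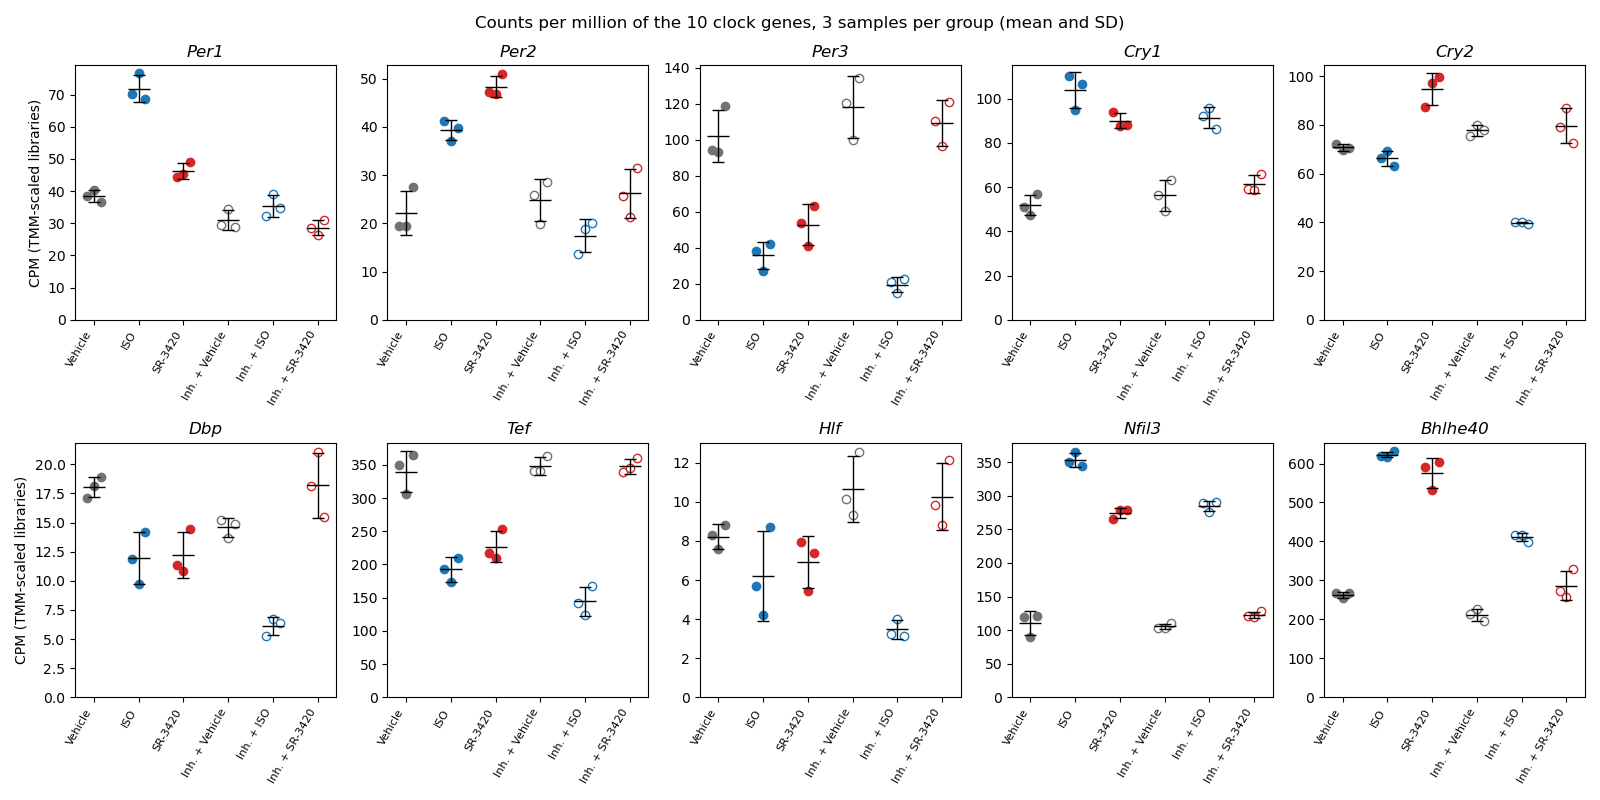
CPM (TMM-scaled libraries, linear axes from 0) of the 10 clock genes in each of the 18 samples, with the mean and SD of the 3 samples per group as black marks. Filled points are groups without and open points groups with lipase inhibitors (Inh.). Per3 fell from 102 ± 14.3 CPM with Vehicle to 35.7 ± 7.71 with ISO, and from 118 ± 17.1 to 19.5 ± 4.00 CPM when the inhibitors were present, whereas SR-3420 lowered it only without them.

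β-adrenergic stimulation was examined by comparing ISO with Vehicle. Nfil3, Bhlhe40, Cry1, Per1 and Per2 rose, Per3, Tef and Dbp fell, and Cry2 and Hlf did not pass the test. Thus 8 of 10 clock genes passed edgeR's quasi-likelihood test at an adjusted p of at most 0.05 (5 higher, 3 lower), as did 51.8% of all genes tested (26.8% higher, 25% lower), so a call alone was common here. Past 2-fold were 4 of 10 (Nfil3, Bhlhe40 and Cry1 higher, Per3 lower), against 9.11% of all genes. The median size of the log2 fold change was 0.87 over the 10 genes and 0.34 over all genes. All values are relative to TMM scaling. With total counts alone as the scale, the median of all genes shifted by -0.31 with ISO, by -0.16 with SR-3420 and by -0.23 with ISO when inhibitors were present.

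The effect of lipolysis started without the receptor was read from SR-3420 against Vehicle, a comparison that shares the Vehicle samples with the preceding one. Nfil3, Per2, Bhlhe40, Cry1, Cry2 and Per1 rose, and Per3, Tef and Dbp fell. This made 9 of 10 past the test (6 higher, 3 lower), against 51.4% of all genes (26% higher, 25.4% lower), and 3 of 10 past 2-fold (Nfil3, Per2 and Bhlhe40), against 6.33%. Hlf was at -0.24 ± 0.20 (log2 fold change ± SE, edgeR adjusted p = 0.331). The summed preadipocyte markers also lay higher in every SR-3420 sample than in every Vehicle sample. Most of this sum was Col1a1 (91.1 ± 1.56 CPM with SR-3420, 67.6 ± 10.7 with Vehicle). Dlk1 and Pdgfra were higher as well, whereas Ly6a and Cd34 overlapped with Vehicle. Pparg, the adipocyte regulator, stood at 302 ± 9.28 CPM with SR-3420 against 537 ± 35.4 with Vehicle. Among the other adipocyte markers Adipoq and Pnpla2 were lower too, but Lipe, Plin1, Cebpa and Fabp4 were higher. All 7 summed to 12425 to 13706 CPM with Vehicle and to 13742 to 14225 with SR-3420. With inhibitors the preadipocyte sum was 87.6 to 96.3 CPM with Vehicle and 96.7 to 100.2 with SR-3420. The part of these markers in the ISO and SR-3420 results was not tested. The inhibitors alone, Lipase Inh. + Vehicle against Vehicle, gave 0 calls among the 10 genes by edgeR and 0.913% of all genes. At an unadjusted p of at most 0.05 they gave 3 (Per1, Dbp and Bhlhe40), and DESeq2 called 2, Per1 and Bhlhe40.

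When the lipases were inhibited, ISO against its matching Vehicle gave 9 of 10 calls (57.7% of all genes), of which 3 were higher and 6 lower (29.4% and 28.3% of all genes). Past 2-fold were 5 of 10 (13.1% of all genes): Per3, Hlf, Tef and Dbp lower and Nfil3 higher. SR-3420 in the presence of inhibitors gave 1 call of 10, Bhlhe40, against 4.34% of all genes. Without the shallow library this was again 1 call, also of Bhlhe40, and the uncalled genes lay between -0.05 for Per1 and 0.24 for Nfil3, with Dbp at 0.20.

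**Figure D2:**
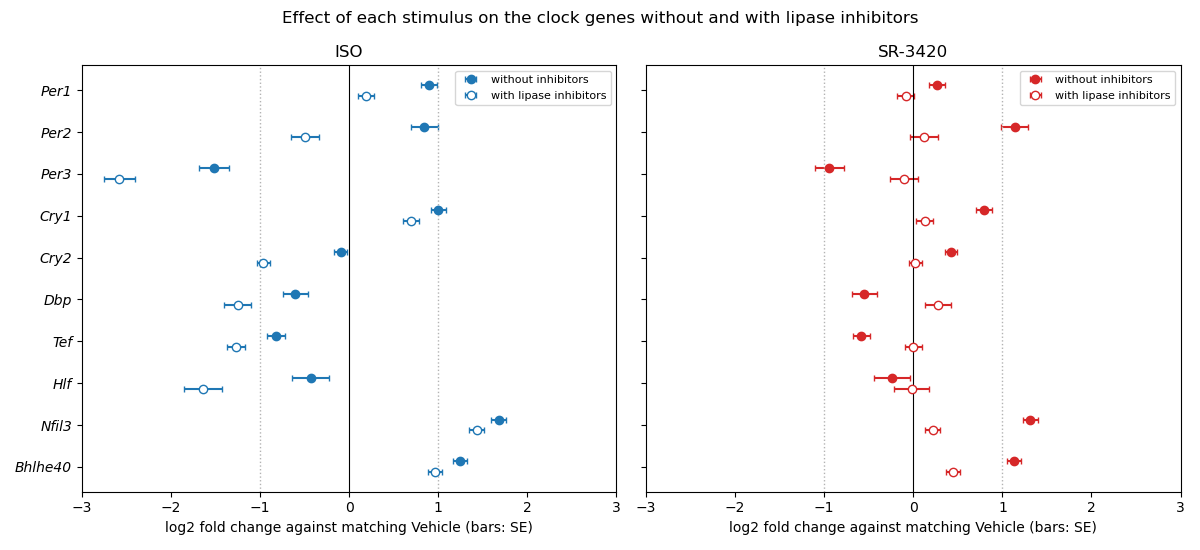
Log2 fold change of each clock gene against the matching Vehicle for ISO (left) and SR-3420 (right), without (filled) and with (open) lipase inhibitors. Bars are SEs of the fit and dotted lines mark 2-fold. For ISO every open point lies to the left of its filled point, and for SR-3420 all open points lie between -0.10 and 0.45.

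Whether an effect differed with inhibitors was tested directly as an interaction, in which the effect in cells without inhibitors is subtracted from that in cells with them. A negative (lower) value means a smaller rise, a deeper fall or a turn from rise to fall with inhibitors, and a positive (higher) value the opposite. For ISO, 7 of 10 clock genes had a called value below 0 and 0 a called value above 0 by edgeR, against 31.4% of all genes called, 16.6% lower and 14.9% higher. Among these 7, Per1 rose less with inhibitors (0.90 without, 0.19 with), and Per2 turned from a rise to a fall. Per3 (-1.51 without, -2.58 with), Tef and Dbp fell more, and Cry2 and Hlf were called lower only with inhibitors. The other three, Cry1, Nfil3 and Bhlhe40, also had values below 0, each at an unadjusted p of at most 0.05, so that all 10 values were negative. Their median was -0.68, against 0.01 for all genes. DESeq2 called 8 of the 10, with 0 higher. For SR-3420, 9 of 10 differed (27.3% of all genes), 6 lower and 3 higher (14.8% and 12.5%), and without the shallow library 8 of 10, with the call of Per1 lost (-0.32, adjusted p = 0.0911). The other eight values were then -1.08 for Nfil3, -0.93 for Per2, -0.65 for Cry1, -0.62 for Bhlhe40, -0.46 for Cry2, 0.59 for Tef, 0.74 for Dbp and 0.91 for Per3. The Cry2 interaction of SR-3420 was lost after thinning all libraries to the smallest total (-0.33, adjusted p = 0.0777). That of Per1 (-0.36, adjusted p = 0.0459) was lost with total counts as the scale, without a low count filter, with only the groups compared, after thinning and on leaving out any of 12 of the 18 libraries. Of these 9, Bhlhe40 alone was still past the test with SR-3420 when inhibitors were present.

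**Figure D3:**
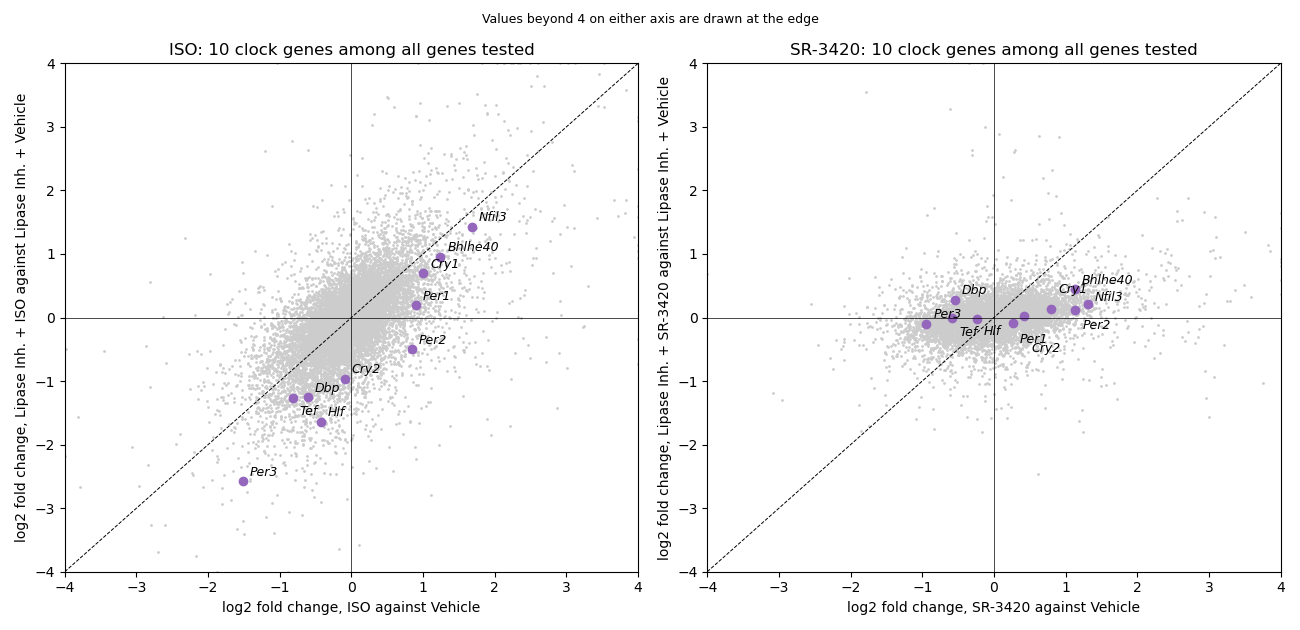
Log2 fold change without (horizontal) against with lipase inhibitors (vertical) for all genes tested (grey) and the 10 clock genes (purple), for ISO (left) and SR-3420 (right). The dashed line marks equal effects and values beyond 4 are drawn at the edge. With ISO all 10 clock genes lie below the dashed line, with Per2 at 0.84 and -0.50, and with SR-3420 they lie between -0.10 and 0.45 on the vertical axis, with Bhlhe40 the highest.

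Among the period genes, which encode repressors of the clock, each of the 3 took a different course. Per1 (mm9, chr11:68912458-68923459, plus strand) stood at 38.6, 40.3 and 36.5 CPM with Vehicle and at 70.3, 76.6 and 68.6 CPM with ISO. The groups did not overlap, and the log2 fold change was 0.90 ± 0.09 (adjusted p = 1.83e-08). With Lipase Inh. + Vehicle it was 29.5, 34.4 and 29.0 CPM and with Lipase Inh. + ISO 32.3, 39.0 and 34.7 CPM, which overlapped. That effect was 0.19 ± 0.09 (adjusted p = 0.0739) and the interaction was -0.71 ± 0.13 (adjusted p = 0.000166). With total counts as the scale the value with inhibitors was -0.03. SR-3420 gave 44.4, 45.4 and 49.2 CPM, all above Vehicle. This small difference (0.27 ± 0.09, adjusted p = 0.0146) did not hold with total counts as the scale (0.11, adjusted p = 0.414), without Vehicle replicate 3 (adjusted p = 0.0595) or without SR-3420 replicate 3 (adjusted p = 0.0779).

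Per2 (mm9, chr1:93312559-93355905, minus strand) changed direction. It stood at 19.5, 19.4 and 27.4 CPM with Vehicle, at 41.2, 37.1 and 39.8 with ISO and at 47.3, 46.8 and 50.9 with SR-3420. Vehicle lay below every sample of both stimuli, with log2 fold changes of 0.84 ± 0.15 (adjusted p = 7.78e-05) for ISO and 1.14 ± 0.15 (adjusted p = 1.72e-06) for SR-3420. In the presence of inhibitors it was 26.0, 19.9 and 28.5 CPM with Vehicle and 13.7, 18.8 and 20.0 CPM with ISO, so that these groups overlapped slightly. Here ISO lowered Per2, by -0.50 ± 0.16 on the log2 scale (adjusted p = 0.00935). This call was lost without Lipase Inh. + ISO replicate 1 (-0.36, adjusted p = 0.0679) or without Lipase Inh. + Vehicle replicate 3 (-0.38, adjusted p = 0.0661). The interaction was -1.34 ± 0.22 (adjusted p = 5.72e-05) and lay between -1.51 and -1.20 when any single library was left out. SR-3420 with inhibitors gave 25.8, 21.3 and 31.5 CPM, which overlapped with Lipase Inh. + Vehicle (0.12 ± 0.16, adjusted p = 0.774; 95% interval from -0.21 to 0.44).

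Per3 (mm9, chr4:150377764-150418774, minus strand) had the widest range of the 10 genes. It stood at 94.2, 93.0 and 118 CPM with Vehicle and at 38.0, 27.1 and 42.0 CPM with ISO. Lipase Inh. + Vehicle gave 120.2, 100.02 and 134 CPM, and Lipase Inh. + ISO 21.1, 15.01 and 22.6 CPM. All samples with ISO lay below all samples of their matching Vehicle, and those with both ISO and inhibitors were the lowest of the 18. The log2 fold change of ISO was -1.51 ± 0.17 (adjusted p = 1.31e-07) without and -2.58 ± 0.18 (adjusted p = 4.64e-11) with inhibitors. In the latter comparison Per3 ranked 32 from the lowest among the 12156 genes. The interaction was -1.07 ± 0.24 (adjusted p = 0.00161). SR-3420 gave 53.9, 40.8 and 63.4 CPM, all below Vehicle (-0.94 ± 0.16, adjusted p = 4.77e-05). With inhibitors it gave 110.3, 96.2 and 121 CPM, within the range of Lipase Inh. + Vehicle but for the lowest sample, which came from the shallow library. The interaction for SR-3420 was 0.84 ± 0.22 (adjusted p = 0.00769), and 0.91 (adjusted p = 0.00681) without that library.

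The cryptochromes, partners of the period proteins in repression, went different ways. Cry1 (mm9, chr10:84594445-84647799, minus strand) stood at 51.2, 47.5 and 56.8 CPM with Vehicle, at 110.1, 94.8 and 107 CPM with ISO and at 94.0, 87.8 and 88.2 CPM with SR-3420. Both stimuli lay wholly above Vehicle, by 1.00 ± 0.09 (adjusted p = 4.81e-09) and 0.80 ± 0.09 on the log2 scale (adjusted p = 1.87e-07). With inhibitors, ISO still raised Cry1, from 56.7, 49.2 and 63.04 to 92.1, 95.7 and 86.5 CPM (0.69 ± 0.09, adjusted p = 7.30e-07). The interaction of -0.31 ± 0.13 did not pass (adjusted p = 0.0645). SR-3420 with inhibitors gave 59.2, 58.6 and 65.9 CPM (0.13 ± 0.09, adjusted p = 0.561), and here the interaction was -0.67 ± 0.13 (adjusted p = 0.000470).

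Cry2 (mm9, chr2:92243804-92274226, minus strand) stood at 72.2, 69.6 and 70.5 CPM with Vehicle and at 66.3, 69.3 and 63.1 CPM with ISO. The samples lay close together, and the difference of -0.09 ± 0.07 did not pass (adjusted p = 0.285; 95% interval from -0.24 to 0.06). With total counts as the scale it was -0.40 and passed (adjusted p = 0.000135). With inhibitors, ISO took Cry2 from 75.4, 79.8 and 78.0 down to 40.0, 40.1 and 39.5 CPM, without overlap (-0.96 ± 0.07, adjusted p = 2.64e-10). The interaction was -0.87 ± 0.10 (adjusted p = 9.53e-07). SR-3420 gave 87.3, 97.3 and 99.7 CPM, all above Vehicle (0.42 ± 0.07, adjusted p = 3.62e-05), and Cry2 was thus higher with SR-3420 than with ISO (ISO against SR-3420, -0.52 ± 0.07, adjusted p = 1.19e-05). With inhibitors, SR-3420 gave 79.3, 86.9 and 72.5 CPM (0.02 ± 0.07, adjusted p = 0.928).

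Of the 3 bZIP activators of D-boxes, Tef and Dbp fell with ISO, and all 3 fell with ISO in the presence of inhibitors. Tef (mm9, chr15:81633103-81657293, plus strand), by far the most abundant of them, ranged from 305 to 365 CPM with Vehicle and from 174 to 210.3 CPM with ISO. With inhibitors it ranged from 340.2 to 364 CPM with Vehicle and from 124 to 167 CPM with ISO. ISO samples lay below their Vehicle samples in both settings (-0.82 ± 0.10, adjusted p = 3.02e-07, and -1.27 ± 0.10, adjusted p = 3.13e-10). The interaction of -0.45 ± 0.14 (adjusted p = 0.0153) was lost with total counts as the scale (-0.37, adjusted p = 0.0697) and without Lipase Inh. + ISO replicate 2 (-0.35, adjusted p = 0.0502). SR-3420 ranged from 209.6 to 253 CPM (-0.58 ± 0.10, adjusted p = 3.01e-05), and from 339 to 361 CPM with inhibitors, which overlapped with Lipase Inh. + Vehicle.

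Dbp (mm9, chr7:52960617-52965573, plus strand) stood at 17.1, 18.2 and 18.9 CPM with Vehicle, at 11.9, 9.74 and 14.2 CPM with ISO and at 11.4, 10.8 and 14.5 CPM with SR-3420. Both stimuli lay below Vehicle (-0.60 ± 0.14, adjusted p = 0.00121, and -0.55 ± 0.14, adjusted p = 0.00238). With inhibitors it fell from 15.2, 13.7 and 14.9 to 5.22, 6.68 and 6.39 CPM with ISO (-1.25 ± 0.15, adjusted p = 4.18e-07), while SR-3420 gave 18.1, 21.1 and 15.5 CPM, all above that Vehicle (0.28 ± 0.14, adjusted p = 0.372). The ISO interaction of -0.65 ± 0.21 (adjusted p = 0.0220) was lost without Lipase Inh. + ISO replicate 1 (adjusted p = 0.0650), without ISO replicate 3 (adjusted p = 0.0700) and after thinning all libraries to the smallest total (adjusted p = 0.311). Dbp overlaps Sphk2, a gene on the opposite strand, by 741 bases, and whether the counting used strand is not stated, so reads of the pair cannot be fully told apart. Sphk2 itself differed by 0.01 ± 0.10 with ISO (adjusted p = 0.917) and by 0.53 ± 0.10 when ISO was added to inhibited cells (adjusted p = 6.56e-05).

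Hlf (mm9, chr11:90197849-90252231, minus strand) was the least abundant, with 33 to 217 counts per library. It stood at 8.28, 7.57 and 8.82 CPM with Vehicle and at 5.69, 4.20 and 8.72 CPM with ISO. These groups overlapped through ISO replicate 3, and the difference of -0.43 ± 0.21 did not pass (adjusted p = 0.0907). Without that library it was -0.72 and passed (adjusted p = 0.00620), as it did with total counts as the scale (-0.74, adjusted p = 0.00515). With inhibitors Hlf fell from 10.1, 9.31 and 12.5 to 3.24, 4.03 and 3.14 CPM with ISO, without overlap (-1.64 ± 0.22, adjusted p = 1.15e-06). The interaction was -1.21 ± 0.30 (adjusted p = 0.00395). No difference of Hlf between SR-3420 and Vehicle was detected at this depth, with 95% intervals from -0.66 to 0.18 without and from -0.43 to 0.39 with inhibitors.

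Nfil3, the repressor that shares sites with these activators, went the opposite way. Nfil3 (mm9, chr13:53062578-53076408, minus strand) stood at 120.3, 89.6 and 121 CPM with Vehicle, at 350.3, 365 and 344 CPM with ISO and at 266, 278 and 278 CPM with SR-3420. ISO lay above SR-3420 and both lay above Vehicle in every sample, by 1.68 ± 0.08 (adjusted p = 4.41e-13) and 1.31 ± 0.08 on the log2 scale (adjusted p = 3.22e-11). In the presence of inhibitors it rose from 104, 103 and 110.0 to 289, 276 and 290.2 CPM with ISO (1.43 ± 0.08, adjusted p = 3.01e-12), and the ISO interaction of -0.25 ± 0.12 did not pass (adjusted p = 0.110). SR-3420 with inhibitors gave 120.5, 119.7 and 128 CPM, all above that Vehicle, with 0.22 ± 0.08 and an adjusted p of 0.177. For SR-3420 the interaction was -1.09 ± 0.12 (adjusted p = 6.56e-07).

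Bhlhe40 (mm9, chr6:108610623-108616919, plus strand) stood at 268, 254 and 268 CPM with Vehicle, at 619, 618 and 631 CPM with ISO and at 592, 532 and 604 CPM with SR-3420. Both stimuli raised it without overlap (1.24 ± 0.08, adjusted p = 2.02e-11, and 1.13 ± 0.08, adjusted p = 1.48e-10). With inhibitors it was 213, 226 and 195 CPM with Vehicle, 417, 416 and 399 with ISO and 272, 258 and 329 with SR-3420. Here, too, every sample of both stimuli lay above Vehicle, by 0.96 ± 0.08 for ISO (adjusted p = 7.62e-10) and by 0.45 ± 0.08 for SR-3420 (adjusted p = 0.00121). The latter was 0.51 without the shallow library (adjusted p = 0.000767) and was not called with total counts as the scale (0.34, adjusted p = 0.0735). The inhibitors alone gave -0.32 ± 0.08 (adjusted p = 0.0528), and all 3 samples lay below Vehicle.

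The make-up of each family was compared within a sample on the RPKM scale, a description chosen after the values were seen. Summed over Per1, Per2 and Per3, the level was 29.0 ± 2.81 RPKM with Vehicle and 28.1 ± 0.698 with ISO, but Per3 made up 58.3 ± 2.49% of it with Vehicle and 21.1 ± 4.11% with ISO. With Lipase Inh. + ISO the sum was 13.8 ± 0.940 RPKM, against 30.6 ± 2.99 with Lipase Inh. + Vehicle, while the share of Per3 was 23.7 ± 5.17% and thus overlapped with that of ISO. The period genes thus kept a similar sum with ISO alone, with Per1 in place of Per3 as the larger share, and a lower sum with ISO and inhibitors. With SR-3420 alone the sum was 27.0 ± 2.66 RPKM. Per3 then made up 32.3 ± 4.08% of it and Per1 36.9 ± 2.37%, which overlapped. Cry1 made up 48.3 ± 2.17% of the cryptochrome sum with Vehicle, 54.8 ± 2.67% with SR-3420, 66.6 ± 2.63% with ISO and 74.5 ± 0.819% with Lipase Inh. + ISO. The ratio of Nfil3 to the sum of Dbp, Tef and Hlf was 0.556 ± 0.0544 with Vehicle, 3.09 ± 0.461 with ISO and 2.08 ± 0.215 with SR-3420. With inhibitors it was 0.538 ± 0.00256, 3.54 ± 0.355 and 0.606 ± 0.0226 in the same order. These are levels of mRNA, and the proteins were not measured here.

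**Figure D4:**
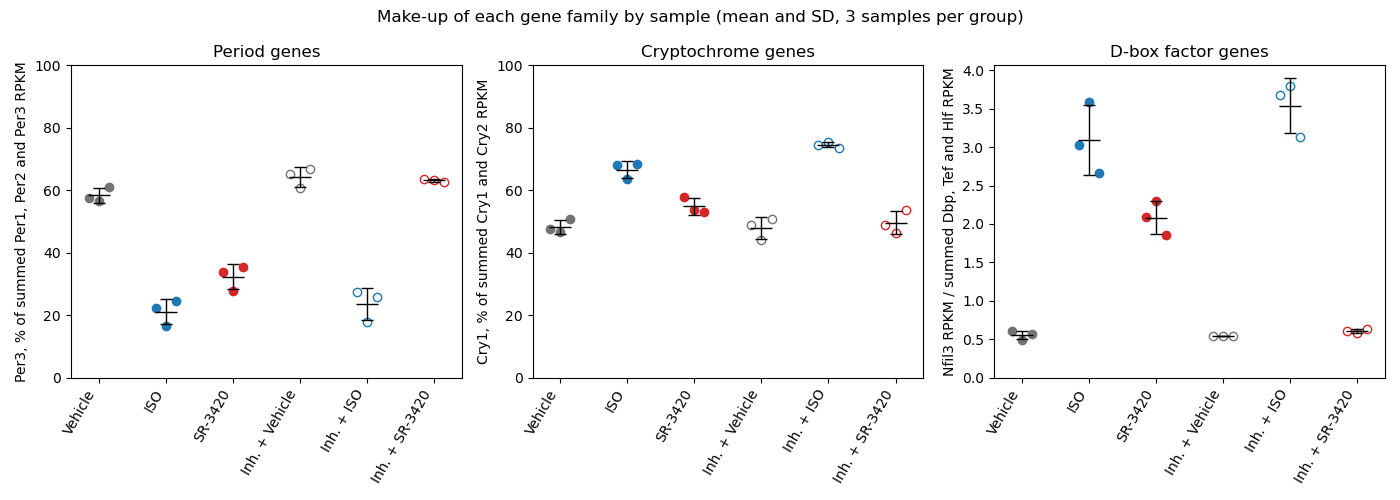
Share of Per3 in the summed Per RPKM (left, %), share of Cry1 in the summed Cry RPKM (middle, %) and ratio of Nfil3 to summed Dbp, Tef and Hlf RPKM (right), per sample with mean and SD over 3 samples; filled points are without and open points with lipase inhibitors. The Nfil3 ratio lies above 1.86 in the samples with ISO, with ISO and inhibitors or with SR-3420 alone, and below 0.63 in the rest.

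ISO and SR-3420 were also compared with each other. Without inhibitors 4 of 10 clock genes differed (29.7% of all genes, 15.8% higher and 13.9% lower with ISO), 0 of them past 2-fold (2.04% of all genes): Per1 (0.63 ± 0.09, adjusted p = 1.06e-05) and Nfil3 (0.36 ± 0.08, adjusted p = 0.00158) were higher with ISO, and Cry2 (given above) and Per3 (-0.57 ± 0.17, adjusted p = 0.0140) lower. The call of Per3 was lost without ISO replicate 2 (-0.41, adjusted p = 0.0917) or SR-3420 replicate 3 (-0.42, adjusted p = 0.107), and that of Nfil3 with total counts as the scale (adjusted p = 0.0821). On that scale Per2 (-0.44, adjusted p = 0.0304) and Tef (-0.38, adjusted p = 0.00826) were called as well. With inhibitors 10 of 10 differed (56.9% of all genes), 4 higher and 6 lower with ISO (28.6% and 28.3%). They reached from Per3 at -2.48 ± 0.18 (adjusted p = 1.16e-10) to Nfil3 at 1.21 ± 0.08 (adjusted p = 6.01e-11), and without the shallow library 10 were called as well. The call of Per1 (0.28, adjusted p = 0.0153) was lost with total counts as the scale (0.15, adjusted p = 0.274), after thinning (adjusted p = 0.162), without Lipase Inh. + SR-3420 replicate 1 (adjusted p = 0.0518) and without Lipase Inh. + ISO replicate 2 (adjusted p = 0.0928).

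Other genes of the clock were read from a list of 27 with activators, nuclear receptors, further repressors, kinases, ubiquitin ligase parts and output genes, of which 26 were tested. With ISO 21 of 26 passed (14 higher, 7 lower), with SR-3420 18 (14 and 4) and with the inhibitors alone 0 by edgeR, where 3 had an unadjusted p of at most 0.05 and DESeq2 called 0. In the presence of inhibitors 24 passed with ISO (10 and 14) and 5 with SR-3420 (4 and 1). The shares of all genes called stand above with each comparison. With total counts as the scale, a check of these genes added after the data were seen, the splits were 11 higher and 8 lower for ISO, 12 and 7 for SR-3420, 7 and 16 for ISO in inhibited cells and 1 and 1 for SR-3420 in inhibited cells, where 5 calls thus became 2, and the direction turned for Csnk1d with ISO and for Clock with ISO and inhibitors. The largest change among the 26 was that of Ccrn4l (nocturnin), a clock output gene, at 3.07 ± 0.07 with ISO (adjusted p = 9.94e-19) and 2.46 ± 0.07 with SR-3420 (adjusted p = 1.94e-16). It was also the largest of those 5, at 0.85 ± 0.07 (adjusted p = 1.58e-07), and without the shallow library, likewise added later, 5 were called again. Ciart, a repressor of CLOCK and BMAL1, rose by 1.58 ± 0.17 with ISO (adjusted p = 5.64e-08) and 1.49 ± 0.16 with SR-3420 (adjusted p = 1.51e-07), and Lonrf3 by 1.10 ± 0.11 (adjusted p = 3.07e-08) and 1.71 ± 0.11 (adjusted p = 5.44e-11).

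A change of direction like that of Per2 was counted over all genes, in comparisons of ISO that share no samples. Higher with ISO and lower with ISO in the presence of inhibitors, both past the test, were 1 of the 10 clock genes (Per2), 6 of the 26 others (Nr1d1, Rora, Bhlhe41, Csnk1e, Lonrf3 and Por) and 2.34% of all genes. The opposite was seen in 0 of the 10, in 1 of the 26 (Dtx4) and in 1.38% of all genes. With total counts as the scale, also added later, the first pattern was seen in Per2, in 4 of the 26 (Rora, Csnk1e, Lonrf3 and Por) and in 1.55% of all genes. Among the nuclear receptors that act on Ror elements, Nr1d1 (REV-ERBα), a repressor, rose with ISO by 0.52 ± 0.10 (adjusted p = 0.000154). It fell with ISO when inhibitors were present (-1.31 ± 0.11, adjusted p = 6.59e-10). Rora, an activator, rose with ISO (1.44 ± 0.13, adjusted p = 6.27e-09) and fell with ISO when inhibitors were present (-0.84 ± 0.14, adjusted p = 2.13e-05). Its interaction was -2.28 ± 0.19 (adjusted p = 6.44e-09). Nr1d2 (REV-ERBβ), a repressor, was at 0.20 ± 0.11 with ISO (adjusted p = 0.117). It fell with ISO when inhibitors were present (-1.17 ± 0.11, adjusted p = 7.19e-09). Its interaction was -1.37 ± 0.15 (adjusted p = 4.11e-07). Rorb rose by 1.10 ± 0.14 on the log2 scale with ISO and inhibitors (adjusted p = 5.99e-07).

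Of the 26, 15 differed in the ISO effect with inhibitors, 3 higher and 12 lower, and 9 of these were past 2-fold (6.89% of all genes). Beyond Rora and Nr1d2, the lower ones past 2-fold were Ccrn4l (-2.26), Nr1d1 (-1.83), Lonrf3 (-1.77), Bhlhe41 (-1.28), Por (-1.12) and Csnk1e (-1.11). Dtx4 was higher (1.34), as it fell with ISO alone (-1.05 ± 0.09) but rose with ISO and inhibitors (0.29 ± 0.08, adjusted p = 0.00453). The genes of the kinases that phosphorylate period proteins parted: Csnk1d rose by 1.15 ± 0.07 with ISO and inhibitors (adjusted p = 5.42e-12), whereas Csnk1e fell by 0.59 ± 0.07 (adjusted p = 6.64e-07). For SR-3420, 12 differed with inhibitors (2 higher, 10 lower), past 2-fold for Ccrn4l (-1.61) and Lonrf3 (-1.44), against 3.82% of all genes. Without the shallow library 10 differed (1 higher, 9 lower), and 2 were past 2-fold. Arntl (BMAL1), the partner of CLOCK, rose with ISO by 1.02 ± 0.12 (adjusted p = 4.31e-07). With ISO and inhibitors it rose still more, by 1.50 ± 0.12 (adjusted p = 3.70e-10), with an interaction of 0.48 ± 0.17 (adjusted p = 0.0331).

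**Figure D5:**
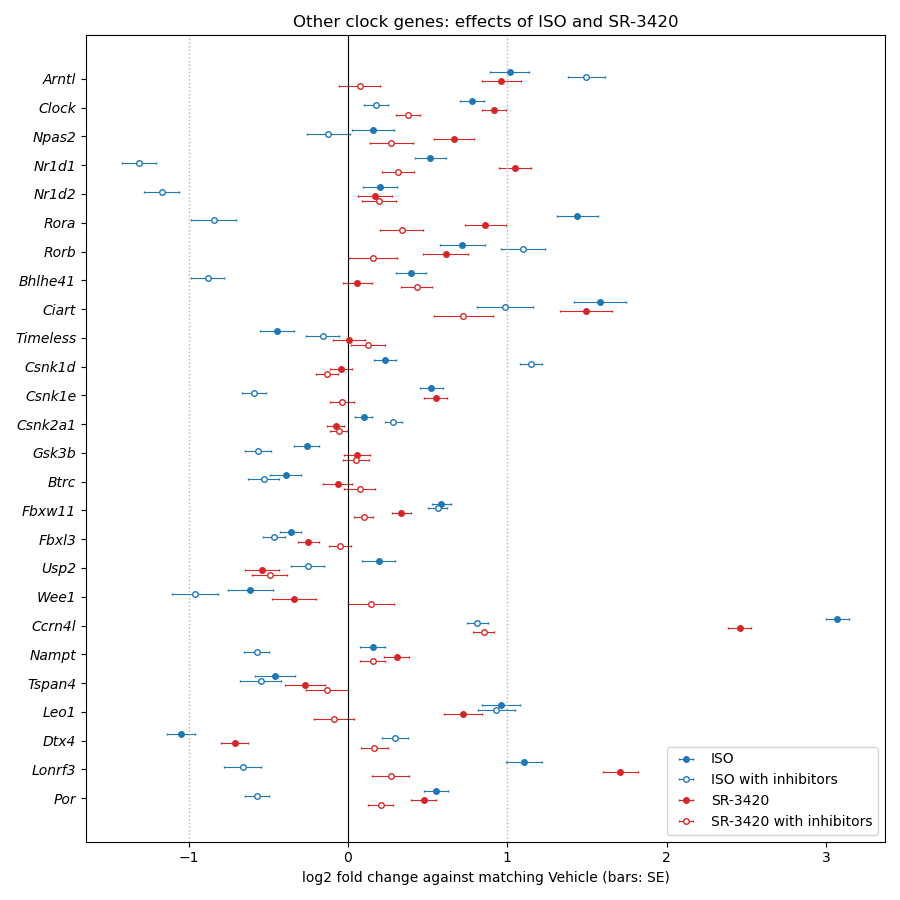
Log2 fold change with SE of the 26 other clock genes tested, against the matching Vehicle, for ISO (blue) and SR-3420 (red), without (filled) and with (open) lipase inhibitors. Dotted lines mark 2-fold. Ccrn4l lies farthest to the right at 3.07 with ISO, and Nr1d1 and Nr1d2 lie beyond -1 for ISO with inhibitors.

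The genes whose pattern was most like that of the 4 members with the widest range were found by Pearson correlation of log2 CPM over the 18 samples, among 9402 other genes. The samples fall into 6 treatment groups, so this describes likeness of the group pattern. Per3 was most like Cdk19 (r = 0.993), Abcg1 (0.984) and Pank2 (0.984). Cdk19, which encodes a kinase of the Mediator complex, went from 81.1 ± 5.02 CPM with Vehicle to 51.3 ± 2.75 with ISO and to 38.2 ± 3.92 with ISO and inhibitors. Nfil3 was most like Scyl2 (0.989), Dhx15 (0.981) and Ccnl1 (0.980), and Hlf most like Krcc1 (0.949), 2610002M06Rik (0.940) and Napepld (0.936). Bhlhe40 was most like Ciart (0.975), Gpr35 (0.974) and Fam110c (0.971).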

How the data were processed

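The authors prepared TruSeq libraries from total RNA, aligned reads with STAR 2.4.2a to the mouse build mm9, summarised tags with HOMER, keeping a single read per position and length, and used iRNA-seq for gene counts. The deposited values are raw counts, neither normalised nor filtered, for 18 samples, and 0 columns belonged to other samples. Keeping a single read per position can lower the counts of very abundant genes, and use of strand is not stated. Positions are given counting from 1.

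The analysis used edgeR 4.0.16 under R 4.3.3. Low genes were removed with filterByExpr (minimum count 10, minimum total 15), libraries were scaled with TMM factors, and a quasi-likelihood model with a mean per group was fitted to all 18 samples. Benjamini-Hochberg adjustment covered 12156 genes, and a gene was called at an adjusted p of at most 0.05. Past 2-fold means, in addition, a log2 fold change of 1 or more in size. SEs come from the fold change and its F statistic. CPM and RPKM were computed on TMM-scaled libraries, RPKM with the counted length given by the authors. P-values rest on the spread between samples within groups, estimated over all 6 groups together and with information shared across genes. A library of a group outside a comparison can thus alter its calls. Samples were grouped by their titles. Intervals are 95% intervals of the fit. Replicates compared before averaging differed by more than counting noise. Totals per library and the depth they give are stated with the results.

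All 10 genes are named. Of the list of 27 other clock genes, those past 2-fold in any comparison were to be named, and 1 further gene of the list is not reported here. Likeness was sought among genes averaging 3 or more in log2 CPM (prior count 2), for the 4 genes with the widest range of group means. Promoter windows came from RefSeq (GRCm38.p6) and other positions from the deposited table (mm9). The genes and lists were chosen with earlier results of these data known. Alternatives were DESeq2 1.42.0, RLE factors, total counts alone, no low count filter, a minimum count of 50, only the groups compared, the replicate number as a block, thinning to the smallest total, and leaving out each library in turn.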

Additional observations from a re-analysis of the deposited data

Results flagged for a closer look

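The results below stood out because the effect of a stimulus differed between cells with and without lipase inhibitors, by edgeR's test of the difference itself (effect with inhibitors minus effect without, log2). For ISO these were Per2 (-1.34), Hlf (-1.21), Per3 (-1.07), Cry2 (-0.87), Per1 (-0.71), Dbp (-0.65) and Tef (-0.45), all lower with inhibitors. Of these, the calls of Dbp and Tef were lost under some settings, as given in the report. For Per2 the difference took the effect from above to below 0, and for the other six the effect moved downward without a called change of sign. For SR-3420, Nfil3 (-1.09), Per2 (-1.02), Bhlhe40 (-0.68), Cry1 (-0.67), Cry2 (-0.40) and Per1 (-0.36) rose without inhibitors and had a lower effect with them (of these, Cry2 was lost after thinning and Per1 under several settings, as given in the report). Per3 (0.84), Dbp (0.82) and Tef (0.58) fell without inhibitors, and these falls were not seen with them. Their log2 fold changes with inhibitors were -0.10 for Per3, 0.28 for Dbp and -0.0013 for Tef, all uncalled. The values for ISO and for SR-3420 share the samples of Vehicle and Lipase Inh. + Vehicle.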

How the results depend on the processing

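Under alternatives other than leaving out a library, 769 values kept direction and call status, 22 gained a call, 12 lost one and 7 changed sign. When a library was left out, 1561 kept both, 21 gained a call, 23 lost one and 15 changed sign. Values uncalled in both fits count among those kept, so these figures do not give the share of calls that held. With SR-3420 and inhibitors, the count of 1 clock gene became 0 with total counts alone and lay between 1 and 2 when a library was left out. It was 2, with Nfil3 added, without Vehicle replicate 2. For the inhibitors alone, the count of 0 became 1 without a low count filter or with a minimum count of 50 and 2 with DESeq2, and lay between 0 and 1 when a library was left out. Bhlhe40 was the gene gained, without SR-3420 replicate 2, Lipase Inh. + Vehicle replicate 2 or Lipase Inh. + SR-3420 replicates 2 or 3. The cause was not tested.

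By their labels, samples of different groups share only a replicate number. Of 45 same-number pairs, 28 had a correlation of deviations above 0.1 (range -0.114 to 0.280). These were 1 of 15 for replicate 1, 12 of 15 for replicate 2 and 15 of 15 for replicate 3. Samples numbered 2 or 3 thus shared part of their deviations, which the main fit leaves out. The replicate block is given here only. With the replicate block, the inhibitors alone gave 2 calls (Per1 and Bhlhe40) and ISO against SR-3420 gave 7 in place of 4. The block also called Hlf with ISO (9 calls in place of 8), Per1 with ISO and inhibitors (10 in place of 9) and the ISO interactions of Cry1 and Bhlhe40 (both adjusted p = 0.0297, 9 in place of 7), and it left the remaining counts as they were. Of the 18 samples, 12 correlated best with their own number.

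Sign changes touched uncalled values near 0. With SR-3420 and inhibitors Tef (-0.0013) became 0.001 with RLE factors or a minimum count of 50 and 0.0009 with DESeq2, Hlf became 0.0571 after thinning and Cry2 became -0.0868 with total counts alone. Total counts alone also turned Per1 with ISO and inhibitors (-0.032) and Bhlhe40 between ISO and SR-3420 (-0.0346). With a library left out, ranges that crossed 0 were, for SR-3420 with inhibitors, Tef -0.0291 to 0.0308, Hlf -0.18 to 0.12, Per2 -0.0485 to 0.23, Cry2 -0.0344 to 0.0868 and Per3 -0.20 to 0.0011. They were -0.19 to 0.0046 for Nfil3 and -0.0361 to 0.083 for Tef with the inhibitors alone, and -0.19 to 0.0909 for Dbp and -0.48 to 0.017 for Hlf between ISO and SR-3420.

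With 3 samples a group and 33 to 217 counts of Hlf per library, small differences of Hlf were not detectable. For Per1's SR-3420 interaction, the adjusted p ranged from 0.0316 to 0.135 when a library was left out. DESeq2 gave no adjusted p for Dbp and Hlf with the inhibitors alone.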
